A study of Oryza sativa Japonica Group with 49 samples.

Results

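The 10 chlorophyll synthesis genes described here are enzymes of the pathway that runs from glutamyl-tRNA to chlorophyll b in rice. They were chosen as gene models from a list whose rule uses no measured value, although it was drawn up with earlier results of these data known, and all 10 were found among the 55986 gene models of both count tables. The members are HEMA1 (LOC_Os10g35840), CHLH (LOC_Os03g20700), CHLI (LOC_Os03g36540), CHLD (LOC_Os03g59640), CRD1 (LOC_Os01g17170), DVR (LOC_Os03g22780), PORA (LOC_Os04g58200), PORB (LOC_Os10g35370), CHLG (LOC_Os05g28200) and CAO1 (LOC_Os10g41780). They were read in 31 RNA-seq libraries, and all 10 passed the filter on low counts in every comparison. Their lowest estimated count in any library was 84, for PORA, so that no level below rests on a handful of reads.

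HEMA1 is glutamyl-tRNA reductase, which commits glutamate to the synthesis of tetrapyrroles. CHLH, CHLI and CHLD are the subunits of magnesium chelatase, which sets the chlorophyll branch apart from the haem branch by inserting magnesium into protoporphyrin IX. CRD1 is a component of the cyclase that closes the isocyclic ring, and DVR reduces a vinyl side group. PORA and PORB are protochlorophyllide oxidoreductases, which need light to work; in barley and Arabidopsis, PORA is best known from dark-grown seedlings and PORB from green ones. CHLG attaches the phytyl tail, and CAO1 makes the chlorophyll b form that the antenna proteins carry. In green tissue these genes are known to be expressed together with the photosystem genes, since free chlorophyll intermediates damage cells in light.

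A first experiment, on stress, gave 19 libraries from 2 rice varieties, ZH11 (Zhonghua 11) and DJ (Dongjin). Seedlings of ZH11 had 3 libraries each for normal growth, drought and heat, those of DJ had 3 each for normal growth and drought, and panicles of ZH11 had 2 each for normal growth and heat. A second, on lines, gave 12 libraries, 3 for each combination of a line (DJ-WT or onac023) with a stress (drought or heat), all from seedlings. onac023 is 1 line with a T-DNA insertion in the transcription factor gene ONAC023 in the DJ background, and DJ-WT are wild types that segregated from a heterozygous onac023 plant. The labels place seedlings at the 4-leaf stage, with drought as 7 d to a relative soil moisture below 10% and heat as 6 h at 45 °C. The methods give other durations for the same treatments, 3 d (ZH11) or 5 d (DJ and the lines) of drought and 10 h (seedlings) or 0.5 h (panicles) of heat, with 26 °C for seedlings and 30 °C for panicles as normal temperature. Which of them applies to these libraries could not be settled from the files. The methods say that seedlings from repeats of the treatments were sequenced. For panicles no such statement was found, so p-values there measure the spread between these libraries, which may be technical.

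Total counts ranged from 39789339 to 132110274 per library. The most frequent low value was 2 in 21 libraries and 4 in the other 10, so that 1 count is not 1 read pair. Levels below are CPM, counts relative to library size, scaled by TMM factors over all 31 libraries, and they are compared between groups, never between genes. All 5 genes fixed as markers of green tissue, which encode antenna proteins and Rubisco small subunits, were above 0 in every library. The 6 floral genes fixed as markers of panicles summed to 954 to 1124 CPM in the panicle libraries and to no more than 45.3 CPM in any seedling library. ONAC023 (LOC_Os02g12310) had 65 to 257 counts in the DJ-WT drought libraries, 105 to 180 in DJ-WT heat, 4 to 9 in onac023 drought and 0 to 2 in onac023 heat, as the labels of the lines imply.

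The libraries labelled DJ-WT held genes of both varieties, and so did those of onac023, with fewer of the ZH11 genes. Of 36 genes at 1 CPM or more in every ZH11 seedling library of the stress experiment and at 0.1 CPM or less in every DJ one, counted as held from 0.5 CPM, the DJ-WT drought libraries held all 36 and the DJ-WT heat libraries 34 to 35, next to 17 to 23 in the onac023 libraries. The same DJ-WT drought libraries held all 54 of the genes defined the other way round, and DJ-WT heat held 42, next to 53 to 54 in onac023 drought and 45 to 46 in onac023 heat. This check was chosen after seeing the data. Results on the lines are therefore given for the libraries labelled DJ-WT, and again without them where another group could take their place.

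**Figure D1:**
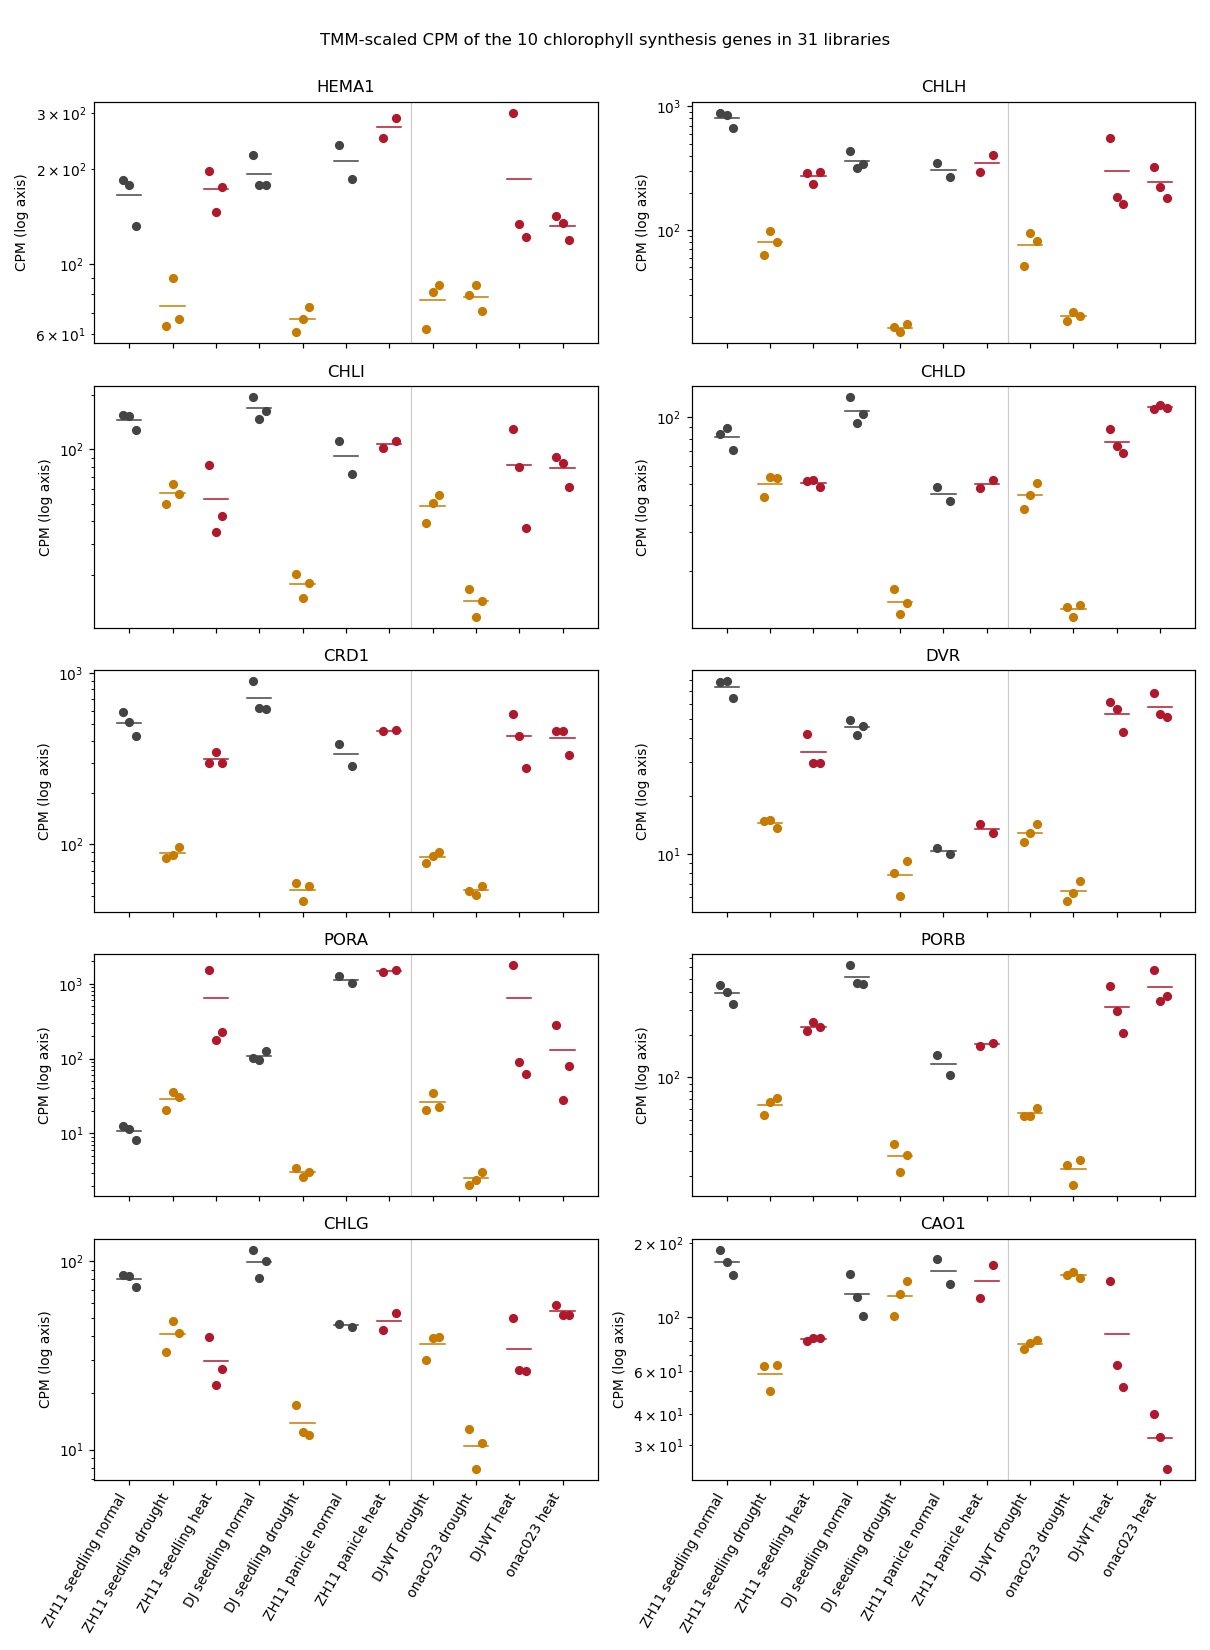
TMM-scaled CPM (log axis) of each of the 10 genes in every library, with a point per library and a line at the group mean; dark grey is normal, orange drought and red heat, and the line experiment stands right of the grey line. Drought means are below the normal mean of the same variety except for PORA in ZH11, with the libraries of CAO1 in DJ overlapping (means of 121 and 124 CPM), PORA spans 2.05 to 1763 CPM, and CAO1 is lowest in onac023 under heat.

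Drought lowered most of the pathway in ZH11 seedlings, and PORA moved the other way. Of the 10 genes, 7 fell and 1 rose past both thresholds (more than 2-fold, and below 0.05 for the adjusted p of edgeR), against 16.9% of all genes tested called lower and 26.2% called higher. The median log2 fold change of the members was -1.46, beside 0.07 over all genes. Libraries of the groups did not overlap for any of the 10, as for 75.1% of all genes.

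CHLH, the subunit that binds the porphyrin, showed the largest fall of the 10. It stood at 892, 858 and 674 CPM in the normal libraries and at 62.6, 98.2 and 79.8 CPM under drought. The log2 fold change was -3.36 ± 0.22 (SE, n = 3 per group, edgeR adjusted p = 2.7e-05). PORB fell from 450.5, 403 and 330.2 CPM to 54.4, 67.0 and 71.3 CPM, a log2 fold change of -2.64 ± 0.17. The cyclase gene CRD1 (-2.55 ± 0.15) and the reductase gene DVR (-2.37 ± 0.11) followed on the same log2 scale. CAO1 (-1.54 ± 0.14), CHLI (-1.37 ± 0.13) and HEMA1 (-1.19 ± 0.19) fell less. The other two stayed within 2-fold of normal, CHLG at a log2 fold change of -0.999 ± 0.15 and CHLD at -0.73 ± 0.13. CHLG passed the fold threshold without drought replicate 2 (-1.14), drought replicate 3 (-1.02) or normal replicate 3 (-1.09). Within magnesium chelatase, then, the fitted values of the 3 subunits lay far apart, from -3.36 for CHLH to -0.73 for CHLD.

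PORA rose. Its level was 12.8, 11.5 and 8.18 CPM in the normal libraries of ZH11 and 20.7, 35.5 and 30.7 CPM under drought, with no overlap. The log2 fold change was 1.40 ± 0.25 (edgeR adjusted p = 0.00233), and it stayed a call with each library left out in turn, between 1.20 and 1.59. The 2 oxidoreductase genes thus moved in opposite directions under the same treatment. Marker genes of green tissue were lower as well, with 4 of 5 called lower and a summed level of 3195 to 6588 CPM under drought against 16843 to 23738 CPM. In bulk tissue, fewer green cells and less RNA per green cell cannot be told apart. The normal libraries here had 4 as the most frequent low value and the drought libraries 2, and counts scaled to read pairs changed no call of a member. Scaled by library totals alone, HEMA1 (-0.74) and CHLI (-0.93) were within 2-fold, 5 members fell and PORA still rose.

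In DJ seedlings the response to drought was larger and took in PORA. Of the 10 genes, 9 fell and 0 rose, against 29.1% of all genes called lower and 25.2% higher, and the members' median log2 fold change was -2.90 beside -0.14 over all genes. CHLH went from 437, 316 and 339 CPM to 16.5, 14.9 and 17.4 CPM (log2 fold change -4.33 ± 0.17, edgeR adjusted p = 5.5e-08). PORB (-4.05 ± 0.22), CRD1 (-3.55 ± 0.20), CHLI (-3.08 ± 0.16), CHLD (-2.73 ± 0.15) and CHLG (-2.67 ± 0.19) were next in size. DVR (-2.40 ± 0.16) and HEMA1 (-1.37 ± 0.13), which opens the pathway, changed least among the genes that fell.

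PORA in DJ was at 102, 96.6 and 125 CPM under normal conditions and at 3.48, 2.65 and 3.02 CPM under drought. That was the largest fall of any member in DJ, with a log2 fold change of -4.98 ± 0.16 (edgeR adjusted p = 2.85e-08). CAO1 was the exception in this variety. It measured 149.9, 121 and 101 CPM in the normal libraries and 101, 123 and 139.7 CPM under drought, and the groups overlapped. The group means were 124 and 121 CPM, while the fitted difference, with scaling over these 6 libraries only, had the other sign at 0.13 ± 0.17 (edgeR adjusted p = 0.508), between -0.42 and 0.21 over the other settings on all libraries. The summed level of the green markers was 8231 to 11069 CPM in the normal libraries and 225 to 318 CPM under drought, and all 5 were called lower. RAB16A, a dehydrin gene used as a marker of drought, stood at 12121 to 19910.0 CPM in the DJ drought libraries and at 3502 to 9385 CPM in those of ZH11.

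The drought responses of the varieties differed for 8 of the 10 genes in a test of the difference itself, 7 of them more negative in DJ and 1 more positive, against 34.2% and 30.6% of all genes. PORA differed most, at -6.35 ± 0.33 on the log2 scale (edgeR adjusted p = 7.54e-08). CHLD followed at -1.97 ± 0.21, CHLI at -1.68 ± 0.22, CHLG at -1.65 ± 0.26, PORB at -1.39 ± 0.27, CRD1 at -0.97 ± 0.24 and CHLH at -0.95 ± 0.26. CAO1 was the gene with the more positive response in DJ, by 1.69 ± 0.24. For DVR (-0.01 ± 0.20, adjusted p = 0.98) and HEMA1 (-0.16 ± 0.24, adjusted p = 0.572) no difference was detected, although with library totals alone both were more negative in DJ, by -1.02 and -1.18. Variety and duration of drought in the methods cannot be told apart in this comparison.

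**Figure D2:**
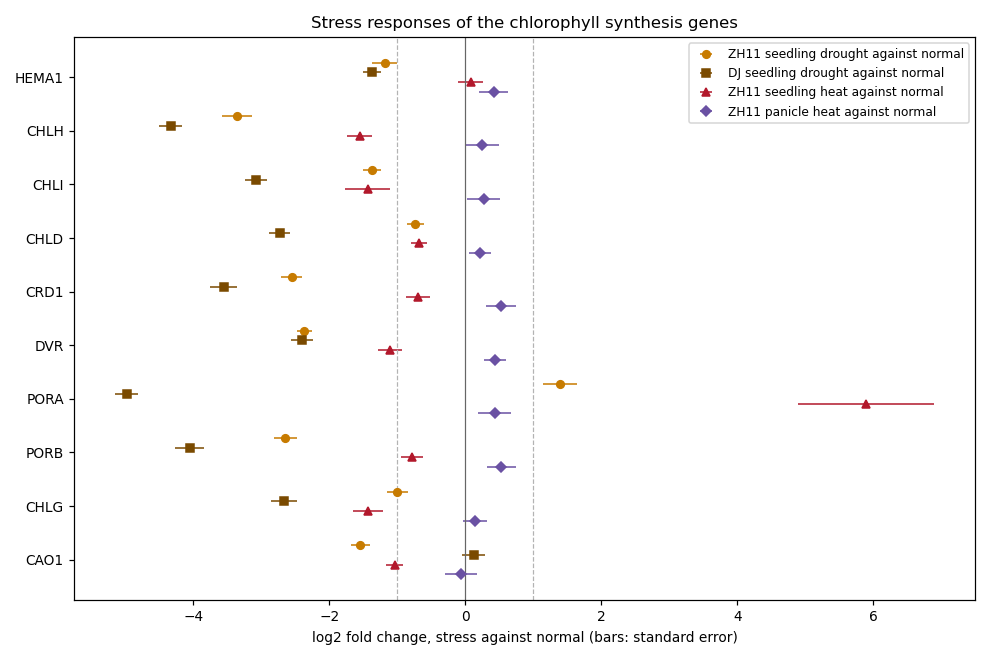
log2 fold change of each gene under stress, relative to untreated plants of that variety and tissue, with bars of 1 standard error and dashed lines at a fold change of 2; the seedling groups have 3 libraries and the panicle groups 2. Orange and brown are drought in ZH11 and DJ, red is heat in ZH11 seedlings and purple heat in panicles, and PORA runs from -4.98 to 5.90 while CAO1 in DJ stays at 0.13.

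Already under normal conditions the varieties differed in PORA. DJ seedlings were above ZH11 seedlings by 3.28 ± 0.19 on the log2 scale (edgeR adjusted p = 2.7e-06), at 96.6 to 125 CPM against 8.18 to 12.8 CPM. CHLH was the only other member past both thresholds, at a log2 difference of -1.19 ± 0.16 with 316 to 437 CPM in DJ and 674 to 892 CPM in ZH11. In all, 1 of 10 was higher and 1 lower in DJ, against 24.6% and 13.9% of all genes. With library totals alone CHLH was at -0.70 and no longer called.

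Heat in ZH11 seedlings gave a smaller median fall than drought and a much larger rise of PORA. The fall was not smaller for CHLI and CHLG, which were at -1.37 and -0.999 under drought. Of the 10 genes, 5 fell and 1 rose, against 24.5% and 31.4% of all genes, with a median log2 fold change of -0.91 beside 0.09. CHLH fell from 892, 858 and 674 CPM to 289, 234 and 297 CPM (log2 fold change -1.55 ± 0.19, edgeR adjusted p = 0.000407). CHLI (-1.43 ± 0.33), CHLG (-1.43 ± 0.22), DVR (-1.11 ± 0.18) and CAO1 (-1.04 ± 0.13) also fell. CAO1 sat at the fold threshold, and it was within 2-fold at -0.96 under RLE size factors, with DESeq2 and without the first normal library, and at -0.99 under upper quartile normalization. PORB (-0.78 ± 0.16), CRD1 (-0.69 ± 0.17) and CHLD (-0.68 ± 0.12) were lower within 2-fold. HEMA1 stood at 197, 146 and 176 CPM under heat, overlapping the normal libraries (0.08 ± 0.18, adjusted p = 0.699).

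PORA rose from 12.8, 11.5 and 8.18 CPM to 1511, 177 and 227 CPM under heat. All 3 heat libraries were above all normal ones, but replicate 1 held several times the level of the other two. The log2 fold change was 5.90 ± 1.00 (edgeR adjusted p = 0.00188), and 4.22 ± 0.22 (adjusted p = 8.45e-06) without that library. Replicate 1 of this group differed in marker genes too. The heat chaperone gene HSP101 was at 2304 CPM there and at 17905 and 13252 CPM in the other two, and RAB16A at 399.9 CPM against 15.8 and 36.6 CPM. Their part in the PORA level was not tested. The summed green markers, at 9515 to 14878 CPM under heat, were below the 16843 to 23738 CPM of the normal libraries.

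Under heat, 6 of the 10 genes were higher than under drought in ZH11 seedlings and 0 were lower, against 18.1% of all genes in each direction. PORA (log2 difference 4.47 ± 0.93, or 2.83 ± 0.26 without heat replicate 1), PORB (1.83 ± 0.18), CRD1 (1.83 ± 0.17), CHLH (1.78 ± 0.23), HEMA1 (1.24 ± 0.21) and DVR (1.23 ± 0.18) made up this set. CHLD (0.03 ± 0.14) and CHLI (-0.09 ± 0.33) were the closest to 0, and CHLG was at -0.46 ± 0.26. With single libraries left out, CHLI ranged from -0.53 to 0.15 and CHLG from -0.71 to -0.28, and neither was called. Both stresses were measured against the same 3 normal libraries above, while this difference does not use those. With library totals alone, HEMA1 (0.77) and DVR (0.76) were within 2-fold and 4 members were called.

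**Figure D3:**
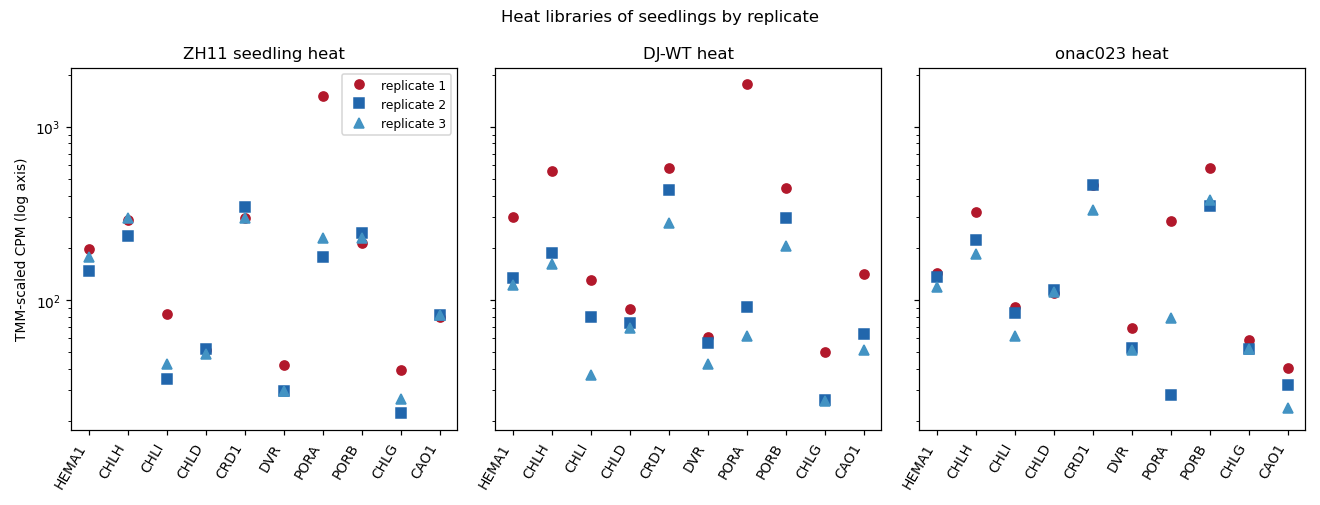
TMM-scaled CPM (log axis) of each gene in the 3 libraries of each seedling heat group, with red circles for replicate 1 and blue squares and triangles for replicates 2 and 3. PORA in replicate 1 stands at 1511, 1763 and 285 CPM in ZH11, DJ-WT and onac023, above the other libraries of its group in each.

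The same number marked the highest PORA library in all 3 heat groups of seedlings. In DJ-WT the level of PORA was 1763 CPM in replicate 1 and 91.3 and 61.8 CPM in the others, and in onac023 it was 285 CPM against 28.2 and 78.4 CPM. Replicate 1 was the highest library for all 10 genes in DJ-WT, for 9 of 10 in onac023 and for 5 of 10 in ZH11. The share over all genes was not computed, so whether this is particular to the pathway was not tested. Summed green markers were also highest in replicate 1 of each group. They stood at 23851 CPM against 9931 and 9876 CPM in DJ-WT, 18470 against 12365 and 13423 CPM in onac023, and 14878 against 9515 and 11660 CPM in ZH11. Relative to the mean of the other libraries, PORA was 23.0 times as high in DJ-WT, 7.49 times in ZH11 and 5.34 times in onac023. The labels give no batch or sampling time that these libraries share, and nothing was tested on it.

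In panicles heat left the pathway without a call. Of the 10 genes, 0 were called higher or lower by edgeR (8.57% and 1.69% of all genes were), 1 had an unadjusted p under 0.05, and DESeq2 gave 0 calls with 4 such p-values. PORA measured 1254 and 1015 CPM in the normal libraries and 1427 and 1505 CPM under heat (log2 fold change 0.43 ± 0.24, n = 2 per group, edgeR adjusted p = 0.277). The fitted differences of the members lay between -0.06 (CAO1) and 0.53 (PORB), with a median of 0.35. Their sign depends on the scaling. With library totals alone all but CRD1, PORB and CAO1 changed sign, the members' median was -0.11 and the median over all genes moved to -0.47. HSP101 rose in the same libraries, from 7.00 and 7.04 CPM to 10549 and 4508 CPM, so that the treatment was visible. Summed green markers were at 10230 and 9101 CPM under heat and at 7960 and 6186 CPM in the normal libraries. Of these 5 markers 0 were called, and their levels are TMM-scaled as well.

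Panicles and seedlings of ZH11 differed most in PORA. Under normal conditions PORA was 6.74 ± 0.24 higher in panicles on the log2 scale (edgeR adjusted p = 2.23e-06), at 1254 and 1015 CPM against 8.18 to 12.8 CPM. DVR (-2.79 ± 0.12), PORB (-1.64 ± 0.20) and CHLH (-1.37 ± 0.19) were lower in panicles, which makes 1 higher and 3 lower of 10 against 33.8% and 24.3% of all genes. CAO1 did not separate the tissues, at 172 and 136 CPM in panicles and 148 to 188 CPM in seedlings (-0.10 ± 0.15, adjusted p = 0.544). CHLH was no longer called with library totals alone (-0.93). Green markers summed to 6186 and 7960.3 CPM in the panicles. Tissue and the normal temperature given in the methods cannot be told apart in this comparison.

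The heat responses of panicles and seedlings differed for 9 of the 10 genes, 8 of them more positive in panicles and 1, PORA, more negative, against 22.2% and 26.5% of all genes. PORA differed by -5.51 ± 1.19 (edgeR adjusted p = 0.00447), and by -3.87 ± 0.34 without heat replicate 1 of the seedlings. CHLH (1.75 ± 0.32), CHLI (1.65 ± 0.48), CHLG (1.52 ± 0.32) and DVR (1.5 ± 0.25) led the others. Values for PORB (1.26 ± 0.27), CRD1 (1.16 ± 0.28), CAO1 (0.92 ± 0.25) and CHLD (0.84 ± 0.19) were smaller. HEMA1 was not called (0.28 ± 0.29). CHLI, CHLD and CAO1 lost the call with library totals alone (adjusted p = 0.0907, 0.143 and 0.168), and CHLI and CAO1 also lost it without panicle heat replicate 2 (adjusted p = 0.0578 and 0.0554) or panicle normal replicate 2 (adjusted p = 0.0845 and 0.0744). By the methods, the heat treatments also differ in length between the tissues.

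Over the 11 groups, PORA had its highest mean levels in ZH11 panicles under heat (1466 CPM) and under normal conditions (1135 CPM), and the next 2 means, 639 CPM in DJ-WT heat and 638 CPM in ZH11 seedling heat, each rest on replicate 1. Its lowest means were 3.05 CPM in DJ seedlings and 2.51 CPM in onac023 under drought, whose libraries overlapped. CAO1 had a flatter order. Its means ran from 168 CPM in ZH11 seedlings under normal conditions to 58.7 CPM in ZH11 drought and 32.1 CPM in onac023 heat, and neighbours in this order overlapped except below DJ-WT drought (77.6 CPM).

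The line comparison asked which genes depend on ONAC023 under stress. Under drought, 7 of the 10 genes were higher in the libraries labelled DJ-WT than in onac023 and 0 were lower, against 18.1% and 7.21% of all genes. The members' median log2 difference was 1.58 beside 0.09. PORA was at 20.4, 35.2 and 22.7 CPM in DJ-WT and at 2.05, 2.41 and 3.07 CPM in onac023 (log2 difference 3.44 ± 0.25, edgeR adjusted p = 3.1e-05). CHLH came to 50.9, 94.1 and 82.0 CPM against 18.5, 21.9 and 20.3 CPM (1.97 ± 0.21). CHLG (1.85 ± 0.19), CHLI (1.81 ± 0.17), CHLD (1.79 ± 0.12), PORB (1.38 ± 0.14) and DVR (1.07 ± 0.14) complete the set. DVR came within 2-fold, at 0.99 and 0.98, without DJ-WT replicate 3 or onac023 replicate 1. CRD1 (0.71 ± 0.08) was higher within 2-fold, and called with library totals alone (1.09), and HEMA1 overlapped between the lines (0.02 ± 0.13).

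CAO1 again stood on the other side. It measured 73.9, 78.4 and 80.5 CPM in DJ-WT and 148, 152 and 145 CPM in onac023 under drought, a log2 difference of -0.87 ± 0.07 (edgeR adjusted p = 3.47e-05) that is within 2-fold. The 5 green markers were all called higher in DJ-WT, with summed levels of 2379 to 5044 CPM against 227 to 328 CPM. PGL3 (LOC_Os03g03990), a chloroplast protein that the study names in connection with chlorophyll, was also higher in DJ-WT (2.50 ± 0.17).

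**Figure D4:**
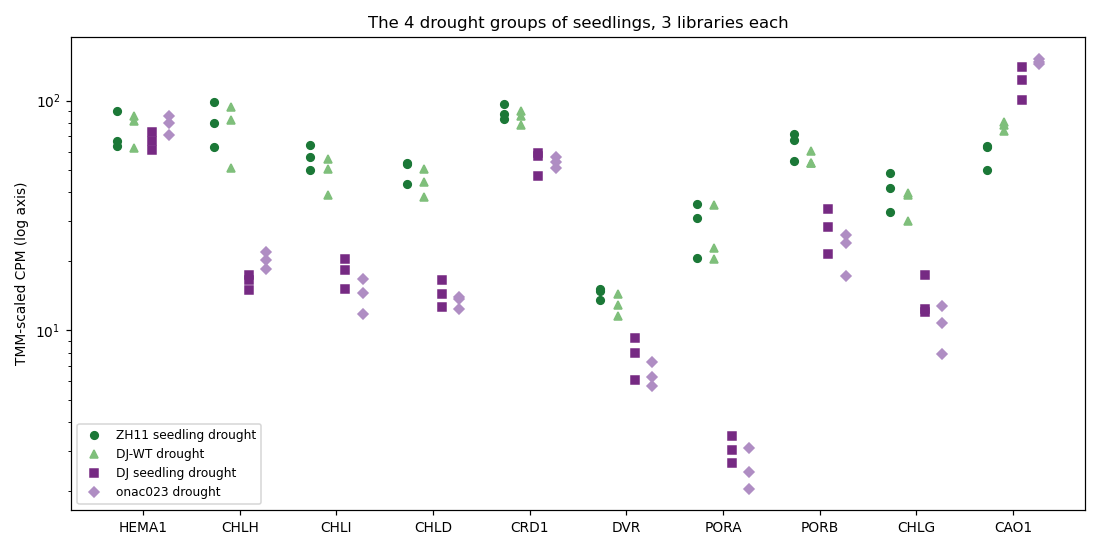
TMM-scaled CPM (log axis) of each gene in the 4 drought groups of seedlings, with 3 points per group; green marks ZH11 and DJ-WT and purple marks DJ and onac023. PORA runs from 20.4 to 35.5 CPM in ZH11 and DJ-WT and from 2.05 to 3.48 CPM in DJ and onac023.

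These differences were not seen against the other DJ group. With the 3 DJ seedling drought libraries in place of those labelled DJ-WT, 0 of the 10 genes were called by edgeR and 3 had an unadjusted p under 0.05, and over all genes 82 were higher and 212 lower than in onac023, against 4399 and 1749 with DJ-WT. PORA was then at 0.31 ± 0.22 (adjusted p = 0.483), CHLI at 0.35 ± 0.16, CHLD at 0.15 ± 0.13 and CHLG at 0.44 ± 0.20. CHLH changed sign, to -0.28 ± 0.11 (adjusted p = 0.227). The DJ seedling libraries come from the stress experiment, and a difference between the experiments would enter this fit as well. The onac023 drought libraries also held 18 to 23 of the 36 genes found in ZH11 but not in DJ seedlings. That variety signal enters this fit too.

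The 4 drought groups can be set side by side. Levels in DJ-WT overlapped those in ZH11 for 9 of the 10 genes, CAO1 being the exception, as for 67.1% of all genes tested. They were above those in DJ seedlings for 8 genes and below for CAO1, against 29.3% and 30% of all genes, and HEMA1 overlapped. Levels in onac023 overlapped those in DJ seedlings for 8 genes, near the 75.5% of all genes, and were above them for CHLH and CAO1, against 14.1% of all genes. The summed green markers came to 3195 to 6588 CPM in ZH11 and 225 to 318 CPM in DJ. Over all genes tested, the group most like each DJ-WT drought library, outside its own, was ZH11 drought (Pearson's r 0.964 to 0.970), and for each onac023 drought library it was DJ seedling drought (r 0.974 to 0.976). Genotype at ONAC023 and the variety signal, which is in the DJ-WT and partly in the onac023 libraries, cannot be told apart.

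Under heat CAO1 was the 1 member past both thresholds. That makes 1 higher in DJ-WT and 0 lower, against 9.04% and 2.24% of all genes, and the median log2 difference of the members was 0.04. CAO1 was at 140.3, 63.8 and 51.5 CPM in DJ-WT and at 40.2, 32.2 and 23.9 CPM in onac023, without overlap (log2 difference 1.41 ± 0.39, edgeR adjusted p = 0.0404). The call did not hold without DJ-WT replicate 1 (0.81 ± 0.22, adjusted p = 0.0308, within 2-fold), nor without any 1 of the onac023 libraries (adjusted p = 0.0815 to 0.149). These fits did not use the pairing by replicate number, and each left a pair incomplete. The call held with the libraries numbered 1 of both lines left out (1.01 ± 0.20, adjusted p = 0.021). CHLG was then called lower in DJ-WT, at -1.02 ± 0.15, from -0.67 ± 0.28 with all libraries, and also without DJ-WT replicate 1 alone (-1.09 ± 0.16). Same-numbered libraries of the lines deviated together under heat, and with the replicate number as a block CAO1 was at 1.29 ± 0.18 (adjusted p = 0.00529). CHLD stood at 88.6, 73.8 and 68.6 CPM in DJ-WT and at 109.7, 113 and 110.3 CPM in onac023, lower in DJ-WT in each pair but within 2-fold, at -0.54 ± 0.16 (edgeR adjusted p = 0.0485) and -0.55 ± 0.12 (adjusted p = 0.0189) with the block. PORB (-0.47 ± 0.32, adjusted p = 0.34) and CHLG were also lower in each pair, and with the block they were at -0.51 ± 0.15 (adjusted p = 0.0438) and -0.75 ± 0.18 (adjusted p = 0.0259), within 2-fold. PORA had an estimate of 2.31 ± 1.31 (adjusted p = 0.254), which turned to -0.81 ± 0.73 without DJ-WT replicate 1. Heat-treated DJ seedlings outside the lines were not analysed here, so this comparison could not be repeated without the libraries labelled DJ-WT.

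The difference between the lines changed from drought to heat for 7 of the 10 genes, 6 of them with a smaller value under heat and 1, CAO1, with a larger one, against 19.4% and 14.6% of all genes. CHLG moved by -2.57 ± 0.38 (edgeR adjusted p = 0.00043), CHLD by -2.39 ± 0.19, PORB by -1.91 ± 0.40, CHLI by -1.82 ± 0.50, CHLH by -1.71 ± 0.60 and DVR by -1.25 ± 0.25. CAO1 moved by 2.22 ± 0.45 (adjusted p = 0.00311), since it was lower in DJ-WT under drought and higher under heat. The call of CHLH (adjusted p = 0.0449) was lost under RLE size factors (adjusted p = 0.0587) and in 9 of 12 fits that left out a library (adjusted p up to 0.121), and held without DJ-WT heat replicate 1 at -2.56. PORA (-1.19 ± 1.55) and CRD1 (-0.74 ± 0.32) were not called, but were at -3.02 ± 0.57 and -0.97 ± 0.26 and called with the heat libraries numbered 1 of both lines left out, and at -4.33 ± 0.98 and -1.06 ± 0.25 without that of DJ-WT alone. All of these values rest on the libraries labelled DJ-WT, and none of these fits used the replicate number as a block. A fit of all libraries with that block changed no member's call in this comparison.

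The other genes of the pathway were read from a list of 17. In ZH11 under drought 1 was called higher and 6 lower, against 26.2% and 16.9% of all genes. In DJ under drought 2 were higher and 12 lower, against 25.2% and 29.1%. In ZH11 seedlings under heat 2 of the 16 tested were higher and 3 lower, both below the 31.4% and 24.5% of all genes. Heat in panicles gave 0 calls among the 17 by edgeR (0 with an unadjusted p under 0.05), against 8.57% and 1.69%. OsChlP (LOC_Os02g51080), the geranylgeranyl reductase that makes the phytyl tail, had log2 fold changes under drought of -2.55 ± 0.15 in ZH11 and -4.03 ± 0.18 in DJ, and fell in both. OsGUN4 (LOC_Os11g16550), which activates magnesium chelatase, fell as well (-2.37 ± 0.24 and -4.04 ± 0.24), and so did YGL18 (LOC_Os06g04150), the methyltransferase between the chelatase and the cyclase (-1.70 ± 0.21 and -4.42 ± 0.33).

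The list held 9 genes for steps before magnesium is inserted. Of these, 0 were higher and 1 lower in ZH11 under drought, against 26.2% and 16.9% of all genes. In DJ under drought 1 was higher and 6 lower, against 25.2% and 29.1%. In ZH11 seedlings under heat 2 were higher and 0 lower, against 31.4% and 24.5%. LOC_Os06g49110, annotated as aminolevulinic acid dehydratase, rose under drought in DJ (1.75 ± 0.15) and under heat in ZH11 (1.66 ± 0.15), with -0.03 ± 0.15 under drought in ZH11. LOC_Os01g18320, annotated as protoporphyrinogen oxidase, and LOC_Os03g21900, annotated as uroporphyrinogen decarboxylase, fell in DJ under drought, with log2 fold changes of -3.73 ± 0.19 and -3.12 ± 0.16. In ZH11 under drought the first of these fell (-1.20 ± 0.27) and the other was at -0.17 ± 0.12. OsCAO2 (LOC_Os10g41760), the near copy of CAO1, rose under drought in both varieties (fitted log2 fold changes of 4.36 ± 0.98 in ZH11 and 2.41 ± 0.42 in DJ), but it was at 0 in 2 of the 3 normal libraries of ZH11 and never exceeded 37 counts, and reads that fit both copies may have been assigned to either. Between the lines under drought, 5 of the 17 were higher in DJ-WT and 0 lower, against 18.1% and 7.21% of all genes. Under heat 0 of the 16 tested were called by edgeR (2 with an unadjusted p under 0.05), against 9.04% and 2.24%.

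Across the 19 stress libraries, the 8 genes other than PORA and CAO1 varied together, with Pearson's r of log2 CPM from 0.47 to 0.98 (median 0.85) over their 28 pairs. Pairs with PORA had a median r of 0.40 and pairs with CAO1 of 0.34. This split was not planned. It set apart the members with the lowest r to the mean of the other 9 (PORA 0.44, CAO1 0.35), so the contrast follows from that choice. The r of gene pairs outside the pathway was not computed. The libraries share treatments, tissue and depth, so these values describe the groups more than single libraries. Names were taken only from the study's supplementary list of genes that differ between DJ-WT and onac023. Among the 876 of these that were tested and are no member, the 5 most like the mean level of the 10 were OsChlP (r = 0.966), OsPLDalpha5 (0.951), OsGLYR2 (0.942), OsMYBS2 (0.941) and OsGUN4 (0.937). Over all 30111 genes tested, members included, they ranked 5, 14, 23, 25 and 29. OsChlP and OsGUN4 are among the 17 other pathway genes described above.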

How the data were processed

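Reads were trimmed with fastp and mapped with STAR to the MSU rice genome by the authors, who deposited a table for each experiment that holds whole-number estimated counts of 55986 gene models, without scaling for depth. How reads were counted is not given in the sources used here. All columns were used (0 left over), and ChIP-seq samples were not analysed here. The main test was the quasi-likelihood F-test of edgeR 4.0.16 (R 4.3.3) after TMM scaling and filterByExpr, fitted to the groups of each comparison, with p-values adjusted by Benjamini-Hochberg over the genes tested. A gene was called where the adjusted p was below 0.05 and the change more than 2-fold, or on the adjusted p alone for a difference between responses. The SE of a log2 value is its size over the root of F. Levels are shown as TMM-scaled CPM, in place of the planned CPM on library totals, a choice made after seeing that the directions differ for heat in panicles. Correlations used TMM-scaled log2 CPM with a prior count of 2. Alternatives were DESeq2 1.42.0, RLE, upper quartile or library-total scaling, no filter, a replicate block, 1 joint fit per experiment, counts divided by the most frequent low value, a test with a log2 fold of 1 as its null, and each library left out. Scaling by library totals and leaving out the heat libraries numbered 1 were added after seeing the data. Replicate numbers come from the labels. Libraries were taken as paired where the deviations of every same-numbered pair correlated over 0.1, which held for DJ-WT and onac023 under heat (r of 0.384, 0.331 and 0.114) and for no other comparison. The block changed no member's call there. In simulated data, the steps recovered 53 to 182 of 200 genes given a log2 change of 2, depending on the comparison, with 3 to 21 false calls. The 53 belong to the heat response of panicles minus that of seedlings. The 21 false calls, beside 133 genes recovered, belong to heat in panicles. The members, the lists and the rule for named genes (all 10 members, the 17 pathway genes as a list, and the 5 most alike) were chosen with earlier results of these data known. No sequences or coordinates are printed, since 0 identifiers were found in the reference table.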

Additional observations from a re-analysis of the deposited data

Results flagged for a closer look

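These results are differences between 2 responses with an edgeR adjusted p under 0.05 for the difference itself, given as log2 values. In the drought response of DJ minus that of ZH11, CHLH was at -0.95, CHLI at -1.68, CHLD at -1.97, CRD1 at -0.97, PORA at -6.35, PORB at -1.39, CHLG at -1.65 and CAO1 at 1.69. In the heat response of ZH11 panicles minus that of ZH11 seedlings, CHLH was at 1.75, CHLI at 1.65, CHLD at 0.84, CRD1 at 1.16, DVR at 1.5, PORA at -5.51, PORB at 1.26, CHLG at 1.52 and CAO1 at 0.92. In the difference between DJ-WT and onac023 under heat minus that under drought, CHLH was at -1.71, CHLI at -1.82, CHLD at -2.39, DVR at -1.25, PORB at -1.91, CHLG at -2.57 and CAO1 at 2.22. No group held enough libraries for a test of single outlying libraries, and no other data were analysed.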

How the results depend on the processing

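Of 120 values (10 genes in 12 comparisons), 67 were called, and 1 of these changed sign in an alternative, CHLH between DJ-WT and onac023 under drought, at -0.28 with the DJ seedling libraries in place of DJ-WT. Of the 53 not called, 27 changed sign in at least 1 alternative without a call. The number of members called moved by over 1.5 times in 4 comparisons. It was 3 in place of 6 for heat in ZH11 seedlings with a log2 fold of 1 as the null. It was 0 in place of 7 between the lines under drought with the DJ seedling libraries. Between the lines under heat, 1 became 0 with that test, 2 without the libraries numbered 1, and 0 to 1 with single libraries left out. Between DJ and ZH11 under normal conditions, 2 became 1 with that test and with library totals alone. Library totals changed 12 calls, the null of 1 changed 10, RLE 2, and DESeq2, upper quartile scaling and no filter 1 each, while 1 fit per experiment and counts scaled to read pairs changed 0. The cause was not tested.

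Replicate numbers did not pair the libraries outside DJ-WT and onac023 under heat. The replicate block changed 1 call, CHLG under drought in ZH11 (from -0.999 to -1.01). In DJ drought against normal all 6 libraries correlated best with their own number, with r of 0.0494 to 0.0856, and in the other unpaired comparisons of 3 against 3 libraries 0 to 2 of 6 did. Over all genes, calls for heat in panicles numbered 2793 with edgeR, 4451 with DESeq2, 1146 with the null of 1 and 1311 to 4508 with single libraries left out. Calls between the lines under drought numbered 6148, or 2735 with that test and 294 with the DJ seedling libraries. Under heat there were 2647, or 702 with that test, 4193 with library totals and 1469 to 3311 with single libraries left out, and heat against drought in ZH11 had 9269, or 4828 with that test. Library totals moved the median of all genes to values between -1.14 and 0.61 and the share of higher among all calls from 60.8% to 76.4% (drought, ZH11), 46.4% to 30.2% (drought, DJ), 83.5% to 56.5% (heat, panicle), 71.6% to 91.6% (lines, drought), 80.1% to 95.4% (lines, heat), 64.0% to 82.7% (DJ against ZH11), 58.2% to 68.7% (panicle against seedling) and 50.0% to 28.5% (heat against drought). For the differences between responses this share went from 47.2% to 16.0% (drought, or 36.6% with upper quartile scaling), 45.7% to 34.3% (heat) and, with RLE and DESeq2, 43.0% to 54.8% and 54.7% (lines). Depth limited no member's value, since the lowest count was 84.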
